A study of Homo sapiens with 6 samples.

Results

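The data concern 9 genes around WNT signalling, of 19775 genes with a probe set, in MDA-MB-231 cells after depletion of LSD1, a histone demethylase encoded by KDM1A: MLLT11, TCF7, TCF7L2, AXIN2, DKK1, WNT5A, WNT5B, CTNNB1 and LRP6. MDA-MB-231 is a human breast cancer line without estrogen receptor expression. The members were taken as every probe set that the platform annotation assigns to exactly 1 of these symbols, which gave 24 probe sets of 54675 on the array, for 8 of the 9 genes. TCF7 has no probe set named here, so it has no value. The genes were chosen with their changes in this same comparison known, so their values are given as a description. No p is printed for them. Where a member is said to pass a fit, that also only describes it and is no evidence of a change.

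Cells transfected with an siRNA against LSD1 (3 arrays) were set against cells transfected with a control siRNA (3 arrays). All the cells had been transfected in 2 rounds, and total RNA was taken on day 6 from biological replicates, with 2.5 µg per array. The siRNA sequences are not given in the sources used here. Arrays hold no read depth, so their number limits the precision. In bulk RNA, fewer cells of a type and less RNA per cell cannot be told apart.

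WNT proteins are secreted ligands that bind Frizzled receptors on the cell surface. In the canonical branch, a Frizzled receptor acts with the co-receptor LRP6 to halt the breakdown of beta-catenin, the product of CTNNB1, which then enters the nucleus and joins the DNA-binding factors TCF7, TCF7L2, TCF7L1 or LEF1 to turn on target genes. AXIN2 is a target that feeds back as a scaffold of the beta-catenin destruction complex, and DKK1 is a secreted inhibitor that binds LRP6. WNT5A and WNT5B mostly signal without beta-catenin and are linked to cell movement and planar polarity. MLLT11, also called AF1q, is a small protein first found as a fusion partner of MLL in leukaemia, and has been described as a cofactor of TCF7 in breast cancer cells, with CD44 among its targets.

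The promoter windows of 3 members are shown because these genes mark the range of the data: MLLT11 had the largest difference, WNT5A the next largest at the brightest probe sets, and DKK1 had a high signal with overlapping groups. Each runs 5′ to 3′ on the gene's strand, from 250 bases before the RefSeq start to 50 after it (GRCh38.p14). Capitals mark CTTTGA, a form of the core of the TCF and LEF recognition sequence, on either strand. TCAAAG is the same form read on the other strand. Forms of the core with another last base were neither marked nor counted. MLLT11 lies on the plus strand at chr1:151060147-151060446, WNT5A on the minus strand at chr3:55487257-55487556, and DKK1 on the plus strand at chr10:52314031-52314330.
MLLT11: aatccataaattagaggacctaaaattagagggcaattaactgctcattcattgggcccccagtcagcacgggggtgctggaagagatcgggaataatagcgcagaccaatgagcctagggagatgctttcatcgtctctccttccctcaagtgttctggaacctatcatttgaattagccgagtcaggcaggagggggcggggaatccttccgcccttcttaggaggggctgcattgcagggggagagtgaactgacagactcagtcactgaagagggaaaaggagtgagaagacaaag
WNT5A: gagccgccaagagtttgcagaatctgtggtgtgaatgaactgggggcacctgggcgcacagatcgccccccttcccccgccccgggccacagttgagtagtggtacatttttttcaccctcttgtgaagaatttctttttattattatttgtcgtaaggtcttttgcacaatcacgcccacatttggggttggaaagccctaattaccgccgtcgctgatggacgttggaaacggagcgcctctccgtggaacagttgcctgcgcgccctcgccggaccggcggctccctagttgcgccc
DKK1: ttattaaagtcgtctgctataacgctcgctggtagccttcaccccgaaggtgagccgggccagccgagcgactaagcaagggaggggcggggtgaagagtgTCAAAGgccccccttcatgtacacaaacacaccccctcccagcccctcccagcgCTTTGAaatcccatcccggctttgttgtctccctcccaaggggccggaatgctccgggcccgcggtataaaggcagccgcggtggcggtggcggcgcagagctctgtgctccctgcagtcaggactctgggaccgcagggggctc

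Of the 12 windows that RefSeq lists for 7 of the members, only the DKK1 window held CTTTGA, with 2 matches that begin 149 and 95 bases before the start. Of all 35116 windows, 12.9% held at least 1 match and 1.29% held 2 or more. The longer form CTTTGAT was in none of the 12 windows and in 2.62% of all windows. A match describes the letters only, and no match says nothing of binding elsewhere. The GC content of the MLLT11 window was 51.0%, with 7 CpG pairs, against a median of 58.7% and 14 CpG pairs over all windows.

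KDM1A, which encodes LSD1, had signals of 291, 184 and 228 on the LSD1 siRNA arrays, against 2540, 2493 and 2295 on the control siRNA arrays. Its log2 change was -3.32, with a standard error (SE) of 0.13 (limma adjusted p = 1.46e-08). The markers of this line were bright on every array, with VIM at 25223 or more, AXL at 12623 or more, CD44 at 11744 or more and EGFR at 3755 or more. ESR1 stayed at or below 95.2 and PGR at or below 76.1. ERBB2 was not dim, lying between 458 and 612, with a mean log2 value at percentile 78.1 of all probe sets. Of the markers of blood and endothelial cells, PTPRC stayed at or below 43.8, CD14 at or below 62.3, CD3E at or below 79.8 and PECAM1 between 123 and 180, none of them at 0. The actin 3′ to 5′ signal ratio, a sign of RNA quality, lay between 1.33 and 1.39 with LSD1 siRNA and between 1.33 and 1.74 with control siRNA, the highest being control array 1.

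Across the members, the largest difference by far was at MLLT11, WNT5A was higher and TCF7L2 lower, and the other 5 genes with values differed little. A gene stands for its brightest probe set here, and log2 changes are of signal + 15, LSD1 siRNA minus control siRNA, from a limma fit over 13822 genes. With that fit, 3 of the 8 genes passed an adjusted p of 0.05: MLLT11 and WNT5A as higher and TCF7L2 as lower. Over all genes tested 41.0% passed (19.8% higher, 21.3% lower), and since the members were chosen on this comparison, nothing is read from their count. For 4 of the 8 genes, namely those 3 and LRP6, the arrays of both groups were fully apart, as they were for 50.4% of all genes tested (24.2% higher and 26.2% lower with LSD1 siRNA). The median log2 change was 0.08 over the 8 members and -0.02 over all genes tested.

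**Figure D1:**
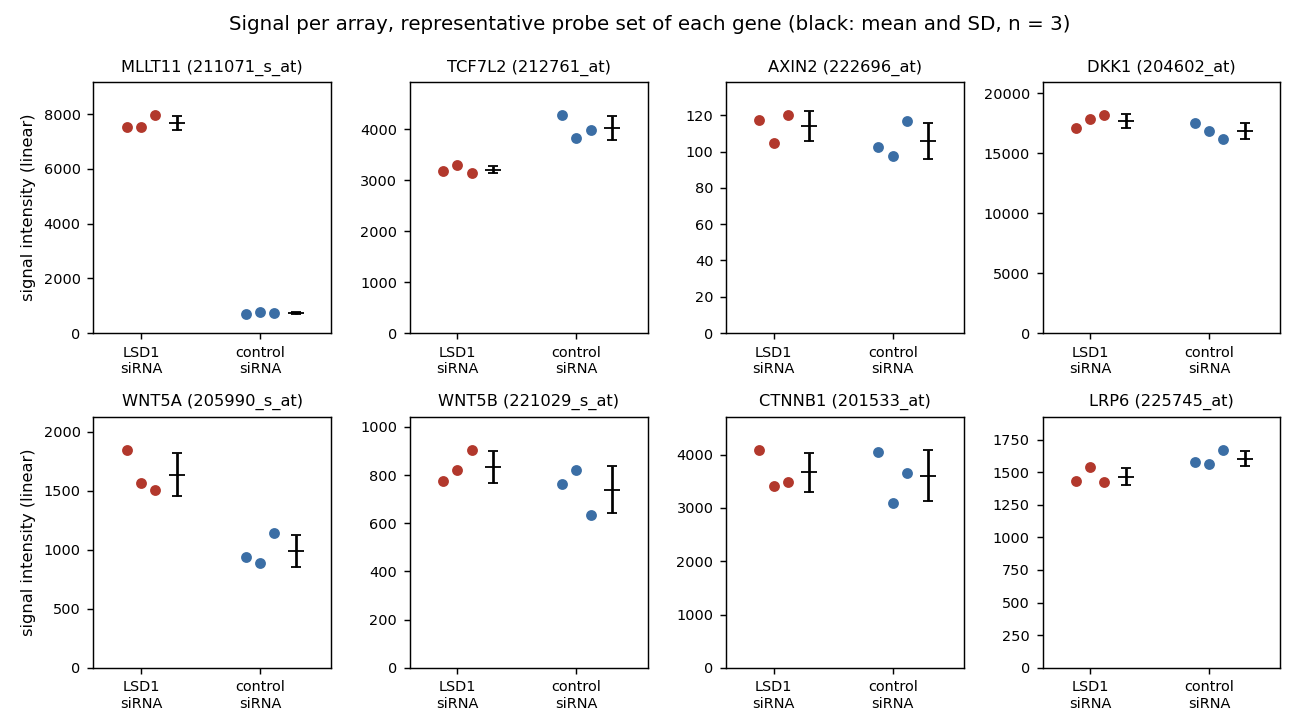
Signal intensity (linear scale, from 0) on each array for the representative probe set of each of 8 genes, LSD1 siRNA in red and control siRNA in blue, with the mean and SD in black (n = 3). MLLT11 lies between 7525 and 7965 with LSD1 siRNA and between 683 and 755 with control siRNA, while the DKK1, WNT5B, AXIN2 and CTNNB1 groups overlap.

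MLLT11 had signals of 7540, 7525 and 7965 with LSD1 siRNA, against 683, 755 and 734 with control siRNA. Every LSD1 siRNA array was far above every control array, and the arrays of each group lay close together. The means were 7677 ± 249 with LSD1 siRNA and 724 ± 37.1 with control siRNA (SD, n = 3 each), a ratio of 10.6. The log2 change was 3.38 (SE 0.06), the 11th highest of all genes tested. MLLT11 has 1 probe set here, so no other probe set can be set beside it.

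By the root mean square difference of log2 values, each centred on the gene's own mean over the 6 arrays, the tested genes most like MLLT11 were IL1B (0.05), F2RL2 (0.08), ODAPH (0.12), GCNT3 (0.15) and EHF (0.18). IL1B encodes the cytokine interleukin-1 beta, F2RL2 a protease-activated receptor, GCNT3 a mucin-type glycosyltransferase and EHF an epithelial transcription factor. Their log2 changes were 3.32 for IL1B, 3.43 for F2RL2, 3.37 for ODAPH, 3.22 for GCNT3 and 3.72 for EHF. With 2 groups of 3 arrays, this likeness mostly measures a difference of similar size and is a description only.

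CD44, the cell surface receptor described as a target of MLLT11 and TCF7, is measured by 13 probe sets that did not move together. Its brightest set was at 11744, 12406 and 12716 with LSD1 siRNA, against 13189, 12793 and 13298 with control siRNA, a log2 change of -0.09 (limma adjusted p = 0.246). Averaged over all its sets the log2 change was 0.0095, so the sign of this value turns. Of the 11 CD44 sets bright enough to test, 2 were higher and 2 lower in the limma fit over all 27079 probe sets, of which 34.4% passed. The set 229221_at rose, with a mean of 746 with LSD1 siRNA and 328 with control siRNA, a log2 change of 1.16 (SE 0.12, limma adjusted p = 2.16e-05). The sets 1557905_s_at and 204490_s_at fell, by 0.28 and 0.22 on the log2 scale.

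Among the DNA-binding partners of beta-catenin, TCF7L2 was lower at most of its probe sets. The brightest, 212761_at, had signals of 3193, 3295 and 3150 with LSD1 siRNA, against 4283, 3829 and 3986 with control siRNA. No LSD1 siRNA array reached the lowest control array. The means were 3213 ± 74.4 with LSD1 siRNA and 4033 ± 231 with control siRNA (SD, n = 3 each), which is 79.7% of the control signal, and the log2 change was -0.33 (SE 0.06). Of its 7 probe sets, 6 had a negative log2 change and 5 had groups that did not overlap, all of these lower with LSD1 siRNA. Those 5 ranged in log2 change between -0.41 at 212759_s_at and -0.25 at 212762_s_at, and neither of these named sets passed the probe set fit. At 212762_s_at the gap was very narrow, with 419.6 on the highest LSD1 siRNA array and 420.3 on the lowest control array. The set 216037_x_at was at -0.18 with overlapping groups. The x suffix of that set and of 216035_x_at, which is 1 of the 5 lower sets (-0.40), marks possible cross-hybridisation. The dimmest set, 236094_at, fell below the signal filter and lay between 3.39 and 52.3 with LSD1 siRNA and between 5.39 and 48.5 with control siRNA. With the mean of all its probe sets, TCF7L2 was at -0.26 and did not pass the fit.

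CTNNB1, the beta-catenin gene, had no difference in mRNA that held at its 3 probe sets. The brightest, 201533_at, had signals of 4092, 3408 and 3496 with LSD1 siRNA, against 4046, 3097 and 3665 with control siRNA. The groups overlapped almost fully, and array 1 was the highest of its group in both. The log2 change was 0.03 (SE 0.10). The dimmer sets were at -0.22 (223679_at) and 0.13 (1554411_at), again with overlapping groups. These are mRNA values, and beta-catenin is known to be controlled mainly as a protein.

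AXIN2, the feedback target, gave different pictures at its 4 probe sets. The only set above the filter, 222696_at, had signals of 117, 105 and 120 with LSD1 siRNA, against 103, 97.6 and 117 with control siRNA, and its groups overlapped. Its log2 change was 0.10 (SE 0.18). The other 3 sets were dimmer, below the filter of a signal of about 28, and were left out of the fit. Of these, 224498_x_at had signals of 5.02, 4.49 and 7.90 with LSD1 siRNA, against 41.4, 25.4 and 51.9 with control siRNA. Its groups did not overlap, and its mean was 14.7% of the control mean. The x suffix of this set marks possible cross-hybridisation. The set 222695_s_at had signals of 7.63, 4.70 and 3.97 with LSD1 siRNA, against 14.1, 10.99 and 11.4 with control siRNA, also without overlap. The set 224176_s_at lay between 7.24 and 10.4 with LSD1 siRNA and between 5.63 and 25.7 with control siRNA. MAS5 signals this low are noisy, and the sets below the filter are given as values only.

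**Figure D2:**
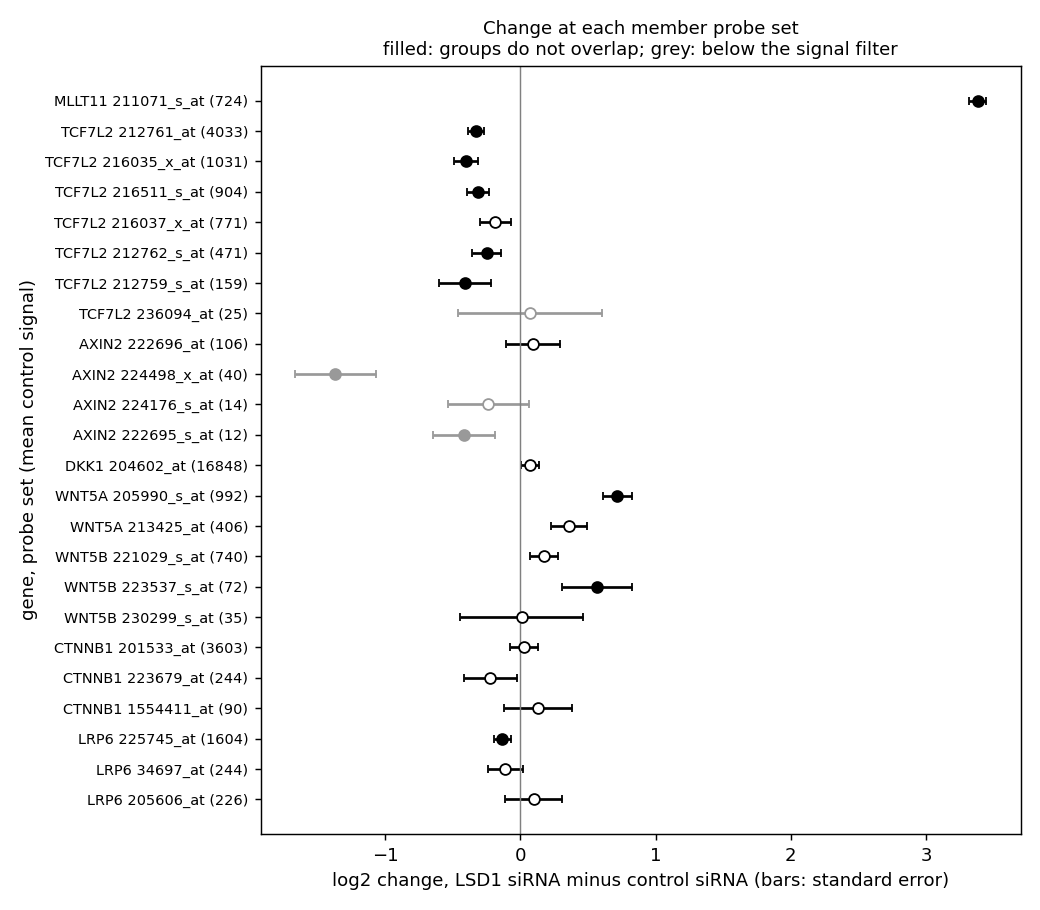
Log2 change (LSD1 siRNA minus control siRNA, x axis) with its standard error at each of the 24 member probe sets, ordered by gene and brightness, the mean control signal in brackets. Filled points have groups that do not overlap, which holds for 11 of the 24 sets, and grey points lie below the signal filter.

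Of the ligands in the set, WNT5A was higher at its brighter probe set, while its other set and all 3 WNT5B sets did not pass the probe set fit. The brighter WNT5A set, 205990_s_at, had signals of 1848, 1563 and 1505 with LSD1 siRNA, against 941, 890 and 1146 with control siRNA. All the LSD1 siRNA arrays lay above the highest control array. The means were 1639 ± 184 with LSD1 siRNA and 992 ± 135 with control siRNA (SD, n = 3 each), a ratio of 1.65, and the log2 change was 0.72 (SE 0.10). The second set, 213425_at, had signals of 533, 474 and 553 with LSD1 siRNA, against 376, 346 and 495 with control siRNA. Here control array 3 lay above LSD1 siRNA array 2, and the log2 change was 0.36 (SE 0.13).

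The brightest WNT5B set, 221029_s_at, had signals of 775, 821 and 905 with LSD1 siRNA, against 764, 823 and 632 with control siRNA. The groups overlapped, and the log2 change was 0.17 (SE 0.11). The dimmer set 223537_s_at had signals of 94.0, 109 and 135 with LSD1 siRNA, against 69.6, 53.8 and 92.2 with control siRNA. Its groups did not overlap, though the gap was narrow, and its log2 change was 0.57 (SE 0.23). The dimmest set, 230299_s_at, was at 0.01 (SE 0.45).

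LRP6, the co-receptor, was slightly lower at its brightest set. That set, 225745_at, had signals of 1429, 1539 and 1422 with LSD1 siRNA, against 1576, 1563 and 1671 with control siRNA. The groups did not overlap but came close, and the log2 change was -0.13 (SE 0.07). The 2 dimmer sets were at -0.11 (34697_at) and 0.10 (205606_at), with overlapping groups.

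DKK1, the inhibitor that binds LRP6, differed little between the groups. Its probe set had signals of 17091, 17849 and 18197 with LSD1 siRNA, against 17492, 16882 and 16171 with control siRNA. The groups overlapped, with LSD1 siRNA array 1 below control array 1. The log2 change was 0.07 (SE 0.06).

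At the level of probe sets, 20 of the 24 member sets passed the signal filter. Of these 20, the groups did not overlap for 9, of which 3 were higher and 6 lower with LSD1 siRNA, where 46.0% of all probe sets tested had groups that were apart (22.5% higher, 23.5% lower). In the probe set fit, 5 of the 20 passed, 2 higher and 3 lower, against 34.4% of all probe sets (17.0% higher, 17.4% lower). The 3 lower ones all belong to TCF7L2 and can share sequence, so they are not independent. Since the members were chosen on this comparison, nothing is read from these counts.

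The rest of the pathway was followed through 10 lists holding 126 other genes, set by role. Of these, 5 had no probe set named here, 34 were below the signal filter and 87 were tested. In the limma gene fit 36 passed, which is 41.4% of those tested, beside 41.0% of all genes. Of the 36, 11 were higher and 25 lower with LSD1 siRNA, where 19.8% of all genes were higher and 21.3% lower. With both directions together, their share past the threshold was thus close to that of all genes. By direction it was less alike, with 25 lower and 11 higher of 87, beside 2939 lower and 2734 higher of 13822. This split was not tested. The counts of single lists given below rest on few genes and were not tested against all genes either. The share past the threshold was 64.3% for nuclear partners, 63.6% for planar polarity, 46.2% for the destruction complex and 45.5% for target genes. These lie above the 41.0% of all genes. The other lists lay below it, among them receptors at 27.3% and the cytoplasmic relay at 37.5%. The median log2 change was -0.09 over the 87 genes and -0.02 over all genes tested. By list, the median was -0.03 for ligands, -0.21 for receptors, -0.02 for the R-spondin axis and 0.01 for extracellular inhibitors. Further inside the cell it was 0.09 for the destruction complex, -0.51 for the cytoplasmic relay, -0.27 for nuclear partners, -0.09 for target genes and -0.08 for planar polarity. Under every alternative that gave a value, 16 of the 36 kept their call, 2 higher and 14 lower. When a gene was averaged over all its sets, 5 pathway genes were higher and 21 lower.

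**Figure D3:**
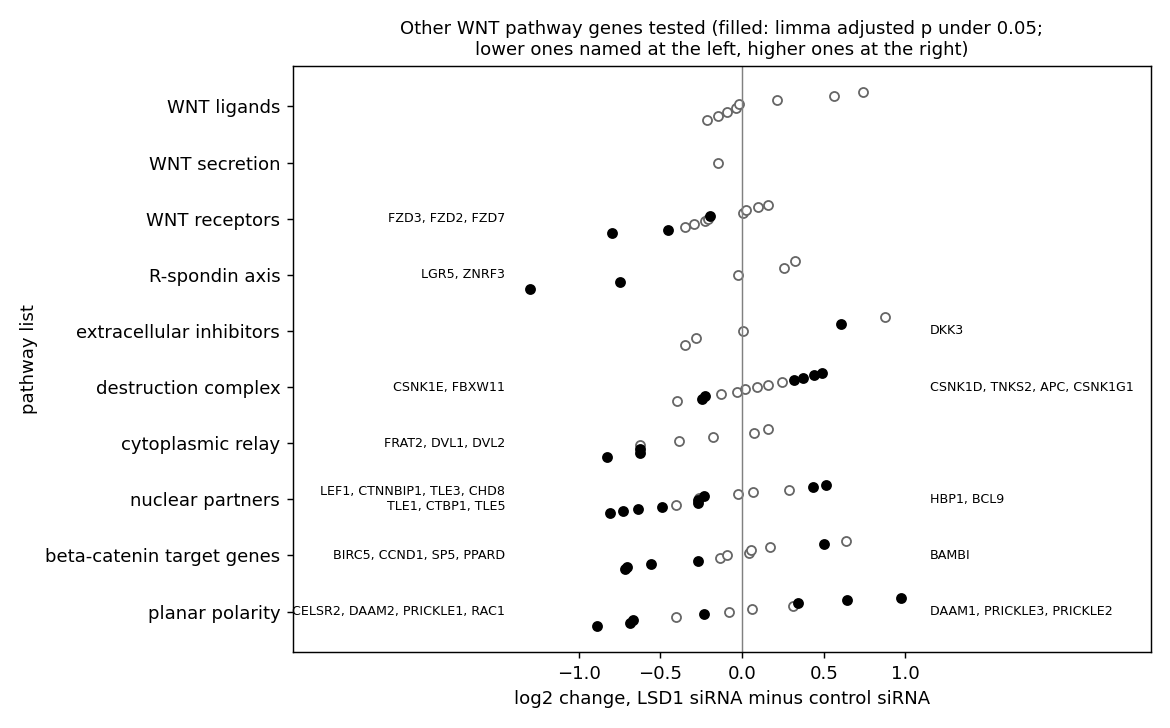
Log2 change (LSD1 siRNA minus control siRNA, x axis) of the 87 other WNT pathway genes tested, 1 point a gene, by list. Filled points passed limma at an adjusted p of 0.05, and their names stand at the left (25 lower) or right (11 higher).

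At the cell surface, receptor genes fell or did not pass, and no other ligand passed. Of 11 receptor genes tested, 3 fell and none rose. FZD3 fell to 136 ± 27.5 with LSD1 siRNA, against 245 ± 13.7 with control siRNA (SD, n = 3 each), a log2 change of -0.80 (SE 0.16, limma adjusted p = 0.00203). FZD2 fell by 0.45 on the log2 scale, and its second set also fell, by 0.40. FZD7 was at -0.20 and lost its call with no filter (limma adjusted p = 0.0567), with no intensity trend, with the mean of its sets and without each of 4 single arrays: LSD1 siRNA arrays 2 and 3 and control arrays 1 and 3. LRP5, the other co-receptor, was at -0.30 (limma adjusted p = 0.137), with 0.0417 without LSD1 siRNA array 1 and a turned sign of 0.054 for the mean of its sets. Of 8 other WNT ligand genes tested, 0 passed the limma fit, with 0 at an unadjusted p under 0.05, and of the secretion genes only WLS was tested, at -0.15. Ligand log2 changes lay between -0.22 and 0.74.

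In the R-spondin axis, which adjusts how many Frizzled receptors stay on the surface, 2 of 5 genes tested fell and none rose. LGR5, a stem cell receptor for R-spondins and a known target of the pathway, had signals of 58.4, 56.7 and 54.9 with LSD1 siRNA, against 168, 162 and 154 with control siRNA. The groups were widely apart for so dim a gene, and the log2 change of -1.30 (SE 0.19, limma adjusted p = 0.000164) was the most negative in the 10 lists. Its second set, 210393_at, was at -0.84 with overlapping groups. ZNRF3, a ubiquitin ligase that removes Frizzled receptors, had signals of 274, 392 and 335 with LSD1 siRNA, against 489, 564 and 651 with control siRNA. Its log2 change was -0.75 (SE 0.14, limma adjusted p = 0.00122). LGR4 (-0.02) did not pass.

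Of 5 extracellular inhibitor genes tested, 1 rose. DKK3, a relative of DKK1, had signals of 125, 116 and 116 with LSD1 siRNA, against 76.2, 55.6 and 91.5 with control siRNA, a log2 change of 0.60 (limma adjusted p = 0.0422). It lost this call with no filter (limma adjusted p = 0.0955), with a replicate block (0.0574) and without 5 of the 6 single arrays, control array 3 being the exception.

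Of 13 genes tested from the destruction complex list, each at its brightest probe set, 4 rose and 2 fell. The list holds parts of the complex and genes that act on it, so these counts give no direction for the complex. APC, the tumour suppressor scaffold, had signals of 900, 960 and 953 with LSD1 siRNA, against 698, 629 and 742 with control siRNA. Its log2 change was 0.44 (SE 0.08, limma adjusted p = 0.00136). CSNK1G1 (0.49), a casein kinase gene, and TNKS2 (0.38), a tankyrase that marks axin for breakdown, also rose. CSNK1D, another casein kinase gene, passed in opposite directions at 2 of its 3 probe sets, with the brightest, 207945_s_at, at 0.32 and 208774_at at -0.29 (limma adjusted p = 0.00423 and 0.0268 in the probe set fit). With the mean of all probe sets none of these 4 passed, with APC at 0.29, CSNK1G1 at 0.31, TNKS2 at 0.26 and CSNK1D at -0.060. That mean takes in sets below the signal filter. The 3 TNKS2 sets above the filter all rose without overlap, by 0.38, 0.51 and 0.40, and 2 of them passed the probe set fit. Its set below the filter, 241909_at, was at -0.24. The 2 lower genes, named after their values were seen, were CSNK1E (-0.25) and FBXW11 (-0.23). Both lost the call with no intensity trend and without each of several single arrays, between 3 and 5 of them. Both also lost it with the mean of all probe sets (limma adjusted p = 0.0914 for CSNK1E and 0.797 for FBXW11). GSK3B, the kinase that marks beta-catenin for breakdown, was at -0.03 (limma adjusted p = 0.736) and at 0.16 with the mean of its sets. AXIN1, the relative of AXIN2, was at -0.40 (limma adjusted p = 0.0979), with 0.0314 without control array 3.

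Of 8 cytoplasmic relay genes tested, 3 fell and none rose. DVL2, a Dishevelled gene that carries the signal from the receptor, had signals of 673, 678 and 728 with LSD1 siRNA, against 1092, 1162 and 983 with control siRNA. Its log2 change was -0.62 (SE 0.08, limma adjusted p = 0.000107). The second DVL2 set, 218759_at, was at -0.55 with overlapping groups and did not pass the probe set fit. DVL1 was close to the brightest DVL2 set at -0.63, and FRAT2, an inhibitor of GSK3, was at -0.83. DVL3 (0.07) did not pass.

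Of 14 nuclear partners tested, 2 rose and 7 fell. LEF1, the relative of TCF7, had signals of 733, 686 and 525 with LSD1 siRNA, against 1009, 1237 and 1179 with control siRNA. All the LSD1 siRNA arrays lay below the lowest control array, and the log2 change was -0.81 (SE 0.12, limma adjusted p = 0.000229). The mean of its 3 probe sets was -0.52 and did not pass (limma adjusted p = 0.116). That mean takes in 221557_s_at, below the signal filter, at -0.14, while 210948_s_at, above it, was at -0.62. CTNNBIP1, an inhibitor that keeps beta-catenin off TCF factors, had signals of 393, 492 and 440 with LSD1 siRNA, against 724, 797 and 701 with control siRNA. Its log2 change was -0.73 (SE 0.10, limma adjusted p = 0.000144). CHD8, a chromatin remodeller that restrains beta-catenin, fell by 0.49. The other 4 lower genes were named after their values were seen. They were the corepressor genes TLE1 (-0.27), TLE3 (-0.64) and CTBP1 (-0.27), and TLE5 (-0.23), a further gene of the TLE family. Of 15 alternatives, TLE1 and CTBP1 lost the call under 1 each, TLE3 under 3 and TLE5 under 8. For CTBP1 it was the mean of all probe sets, which takes in the dim 1557714_at at 0.02. The other 3 CTBP1 sets were lower in the probe set fit. HBP1, a repressor of the pathway, rose by 0.43, with 0.06 for the mean of its sets (limma adjusted p = 0.842). The HBP1 mean takes in 236645_at, below the signal filter, at -0.35, and 207361_at, above it, at 0.09. BCL9, a coactivator, was at 0.51 (limma adjusted p = 0.0486), a call lost under 10 of 15 alternatives. TCF7L1 was at -0.26 (limma adjusted p = 0.577).

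Of 11 target genes of beta-catenin tested, 1 rose and 4 fell. CCND1, the cyclin D1 gene, had signals of 3769, 3886 and 3800 with LSD1 siRNA, against 6208, 6316 and 6188 with control siRNA, a log2 change of -0.71 (SE 0.05, limma adjusted p = 1.56e-06). The second CCND1 set, 208711_s_at, was at -0.45 with overlapping groups and passed the probe set fit (limma adjusted p = 0.0476). BIRC5, the survivin gene, which also follows the cell cycle, fell by 0.72, and all 4 of its probe sets fell. PPARD fell by 0.27 but was at -0.05 with the mean of its sets (limma adjusted p = 0.748). SP5, named after its values were seen, was at -0.56 (limma adjusted p = 0.0410). It lost this call under 7 of 15 alternatives, among them a replicate block (0.0638) and leaving out each of 4 single arrays. BAMBI, a decoy receptor that damps TGF-beta signals, rose, with signals of 811, 679 and 663 with LSD1 siRNA, against 531, 493 and 479 with control siRNA, and a log2 change of 0.50. MYC was at 0.04 (limma adjusted p = 0.669), and at -0.0046 without LSD1 siRNA array 3.

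**Figure D4:**
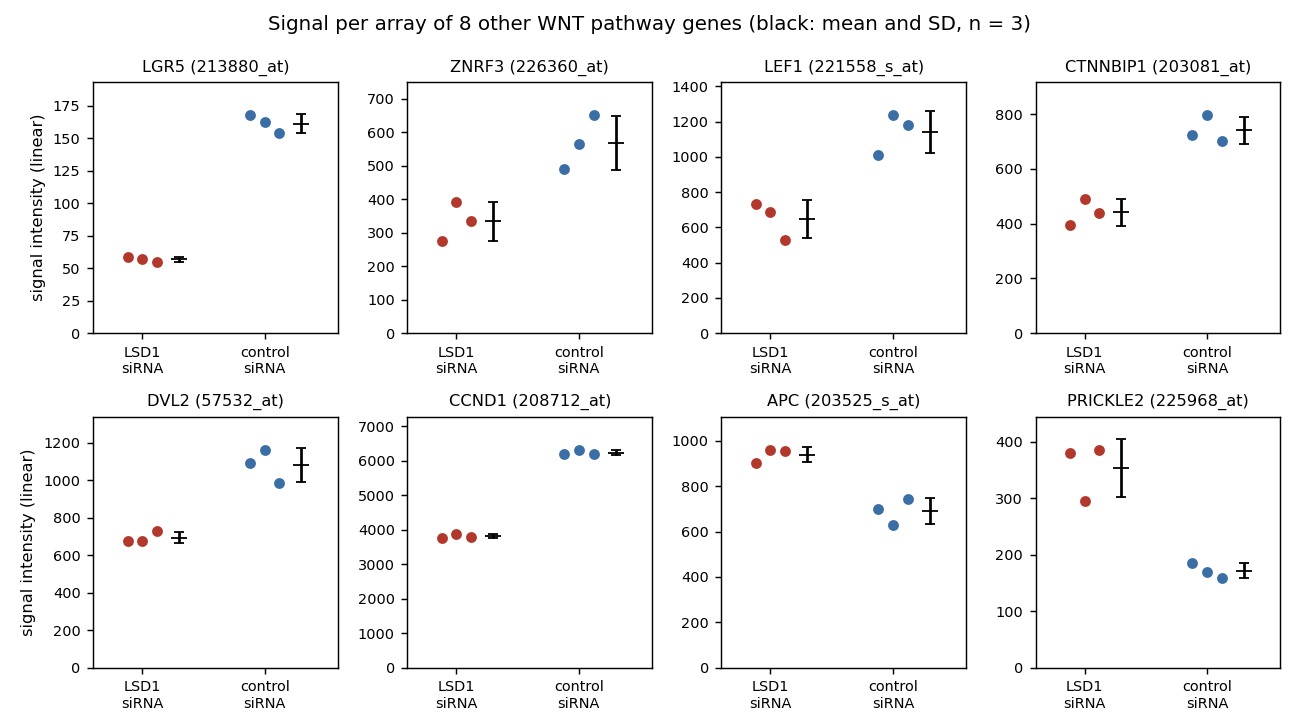
Signal intensity (linear scale, from 0) on each array for 8 other WNT pathway genes, LSD1 siRNA in red and control siRNA in blue, with the mean and SD in black (n = 3). LGR5, ZNRF3, LEF1, CTNNBIP1, DVL2 and CCND1 lie lower with LSD1 siRNA, and APC and PRICKLE2 higher, with no overlap between the groups in any of the 8.

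Of 11 planar polarity genes tested, the branch that WNT5A is linked to, 3 rose and 4 fell. PRICKLE2 had signals of 381, 295 and 386 with LSD1 siRNA, against 186, 170 and 160 with control siRNA, a log2 change of 0.97 (SE 0.14, limma adjusted p = 0.000184). Its relative PRICKLE1 went the other way, with signals of 396, 390 and 421 with LSD1 siRNA, against 646, 690 and 613 with control siRNA, a log2 change of -0.67 (SE 0.09, limma adjusted p = 0.000122). CELSR2, an atypical cadherin gene, fell by 0.89 on the log2 scale, and DAAM2, a formin gene, fell by 0.69. The second CELSR2 set, 204029_at, was at -0.53 with overlapping groups and did not pass the probe set fit. DAAM1 (0.35), PRICKLE3 (0.64) and RAC1 (-0.23), named after their values were seen, also passed. Of 15 alternatives, DAAM1 lost its call under 1, PRICKLE3 under 2 and RAC1 under 4. For DAAM1 it was the mean of all probe sets, which takes in 232552_at, below the signal filter. Of the 4 DAAM1 sets above the filter, 3 were higher in the probe set fit.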

How the data were processed

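RNA of 3 LSD1 siRNA and 3 control siRNA samples was measured on Affymetrix arrays. The authors deposited linear signal intensity for 54675 probe sets per array, and GCOS, Affymetrix Expression Console 1.1 and MAS5 are named per the submitters' processing notes. The trimmed mean (2% cut from each end) was 500.1 on every array, so the deposited intensity values already carry a common scaling and a difference in RNA content between cells cannot be seen. They hold no detection calls.

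The platform annotation gave 1 symbol to 41097 probe sets, several to 1801 and none to 11777. Of the first kind, 41043 matched a RefSeq table (GRCh38.p14) by gene identifier, and 0 symbols needed updating. The 62 control sets were left out. Each gene was represented by its set with the highest mean log2 value, x-suffix sets only where no other existed. Values were log2(signal + 15), the constant being the 25th percentile over the signals, which understates changes of dim genes. Genes were kept where their mean log2 value passed the 40th percentile, a signal of about 28. The comparison used limma 3.58.1 under R 4.3.3 (lmFit, eBayes with an intensity trend, no covariate, two-sided) with Benjamini-Hochberg adjustment at 0.05 over all genes, and in a second fit over all probe sets. The standard error of a dimmer probe set is from the second fit, and in the plot of all member probe sets from that fit without the filter. The fit was tested on simulated data. Promoter windows are from RefSeq, and AXIN2 and LRP6 have none in the table used. Figures were drawn with matplotlib 3.10.9.

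The members and lists were chosen with earlier results of these data known. Named genes are the members, KDM1A, from each list up to 4 genes past the threshold, taken by smallest p, LEF1, TCF7L1, LRP5, APC, AXIN1, GSK3B, MYC, CCND1 and CD44 whatever their result, and the 5 tested genes most like MLLT11. Other pathway genes past the threshold were added after their values were seen. Alternatives were a constant of 1 or 60, no filter or the 60th percentile, quantile normalization, median centring, no intensity trend, the mean of all probe sets, a replicate block and leaving out each array. The mean of all probe sets takes in sets that lie below the filter on their own.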

Additional observations from a re-analysis of the deposited data

How the results depend on the processing

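The members' log2 changes kept their direction for the 3 genes that passed, under all 15 alternatives. MLLT11 lay between 3.30 and 3.41, with 3.30 for a constant of 60. With the mean of all probe sets WNT5A was at 0.54, TCF7L2 at -0.26 and LRP6 at -0.05, and AXIN2 was below the filter. The number of member genes past the threshold was 3 under 14 alternatives and 2 with the mean of all probe sets, where TCF7L2 was lost. CTNNB1 had no settled sign, between -0.08 and 0.12. Without single arrays MLLT11 lay between 3.34 and 3.41, the number of member genes past the threshold stayed at 3, and KDM1A lay between -3.48 and -3.17. The number of other pathway genes past the threshold lay between 29 and 39 without single arrays (9 to 13 higher, 20 to 26 lower), and was 26 with the mean of all probe sets, where the higher ones numbered 5. Signs turned with the mean of all probe sets for CD44 (0.0095), CSNK1D (-0.060), FBXW11 (0.033), GSK3B (0.16) and LRP5 (0.054), and for MYC without LSD1 siRNA replicate 3 (-0.0046), where leaving out single arrays gave -0.0046 to 0.11. The cause was not tested. Over all genes, between 4420 and 5739 passed under the alternatives, beside 5673.

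Same-numbered arrays of the groups did not deviate together: the correlations of their deviations across genes were 0.01, -0.01 and 0.02, so the numbers were not taken as pairs. With a replicate block 33 pathway genes passed (9 higher, 24 lower) and 3 member genes, and MLLT11 stayed at 3.38. CTTTGAT in place of CTTTGA left 0 of the 12 member promoter windows with a match, beside 1.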
